A study of Mus musculus with 8 samples.

Results

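The mitochondrial respiratory chain was examined at the transcript level in 8 neuroblastomas of LSL-MYCN;Dbh-iCre mice. Its members here are all genes whose symbol begins with Nduf, Uqcr or Cox4 to Cox8, together with Sdha, Sdhb, Sdhc and Sdhd, provided that an array probe set is annotated to that gene alone. This gave 73 genes with 148 probe sets, of 18194 genes with 34958 single-gene probe sets in all. Of the 73 genes, 42 belong to complex I, 4 to complex II, 8 to complex III and 19 to complex IV. The 42 complex I genes comprise 6 core subunits, 28 accessory subunits and 8 assembly factors.

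Tumors 7 and 8 arose in the superior cervical ganglion, which belongs to the sympathetic chain, and tumors 1 to 6 in the adrenal gland, with 1 Affymetrix mouse array per tumor. All 8 tumors carried the same alleles: a human MYCN cDNA with a luciferase reporter in the ROSA26 locus, kept silent by a loxP-flanked stop cassette, and a Cre recombinase under the dopamine beta-hydroxylase (Dbh) promoter, which is active in the noradrenergic lineage. The sources used here name no treatment and give neither an age per tumor nor a separate mouse for each tumor, so p-values measure only the spread between these tumors. Normal adrenal tissue was not analysed here, and levels are described among the tumors.

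Respiratory complexes I to IV sit in the inner mitochondrial membrane. Complex I oxidises NADH and complex II succinate, both pass electrons through ubiquinone to complex III, and complex IV reduces oxygen with electrons delivered by cytochrome c. Most subunits are encoded in the nucleus, and those encoded by mitochondrial DNA are not among the members. Several complex IV subunits exist as pairs of a ubiquitous form and a form restricted to heart, skeletal muscle, lung or testis. In humans, inherited loss of succinate dehydrogenase (complex II) predisposes to paraganglioma and pheochromocytoma, tumors of the sympathoadrenal lineage.

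Values are log2 expression values as deposited, and the brightest probe set on average stands for each gene. Probe sets differ in brightness, so that levels were compared between tumors and not between genes. A gene was called detected in a tumor when its value lay above the 95th percentile of 86 probe sets for olfactory, vomeronasal and taste receptors on the same array. This limit ran from 6.71 to 7.21. Ganglion tumor 7 stood apart in the series: the mean of 8 markers of noradrenergic neuroblasts was 9.99 in tumor 7, against 12.96 to 13.34 in the other 7 tumors, with 7 of the 8 markers detected in every tumor and Gata3 missed in tumor 7 only. Adrenal tumor 6 had a mean of 12.76 over 8 hepatocyte genes, against 5.90 to 6.37 in the others. In adrenal tumor 1 the 3′ probe set of Gapdh, a measure of RNA integrity, lay 5.51 above its 5′ probe set, against 0.47 to 1.57 elsewhere (1.57 in tumor 7). In bulk tumor RNA, fewer cells of a type and less RNA per cell cannot be told apart.

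Nearly the whole set of respiratory chain genes was transcribed in every tumor. All 8 tumors had 67 of the 73 genes above the detection limit (91.8%), beside 54.8% of all 18194 genes. All members of complexes II and III were detected, with 4 of 4 and 8 of 8 genes in all tumors. Complex I had 41 of 42 genes detected in all tumors, and complex IV had 14 of 19. The exceptions in complex IV were confined to its tissue-restricted isoforms.

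From tumor to tumor the members varied somewhat less than genes in general. Their SD over the 8 tumors ran from 0.10 to 0.62 with a median of 0.21, beside a median of 0.26 over the 16254 genes tested. Among genes with a mean of at least 10 the medians were 0.20 for 56 members and 0.27 for 4178 genes in all. Of the 15 members with the highest SD, 4 were complex I assembly factors (Ndufaf8, Ndufaf6, Ndufaf4 and Ndufaf3), while Cox6b2, Cox7b2 and Cox8b were restricted isoforms, Cox6b2 and Cox8b near the detection limit and Cox7b2 well below it.

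In the isoform families the ubiquitous form lay far above the limit in every tumor. The restricted form lay close to the limit or below it, except for Cox8c on its brightest probe set. Cox4i1, the general form of subunit 4, was 13.49 in ganglion tumor 7 and 13.73 in ganglion tumor 8, against 13.55 to 13.84 (median 13.66) in the adrenal tumors. Cox4i2, the form known from lung and oxygen-sensing cells, was 6.66 and 6.64 in ganglion tumors 7 and 8 and 6.34 to 6.82 (median 6.67) in the adrenal tumors, and it was detected in no tumor. Cox6a1 was 14.40 in ganglion tumor 7 and 14.61 in ganglion tumor 8, against 14.44 to 14.70 (median 14.64) in the adrenal tumors. Cox6a2, the heart and skeletal muscle form, was 7.69 and 7.53 in ganglion tumors 7 and 8 and 7.04 to 7.60 (median 7.44) in the adrenal tumors, which lay above the limit in all 8 tumors. At the stricter 99th percentile of the receptor probe sets Cox6a2 was detected in 7 of 8. Its other probe set was detected in none.

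Cox7a2 was 13.73 in ganglion tumor 7 and 13.99 in ganglion tumor 8, against 13.79 to 14.21 (median 13.98) in the adrenal tumors. Cox7a1, the heart and muscle form that is also high in brown fat, was 5.46 and 5.20 in ganglion tumors 7 and 8 and 5.09 to 5.84 (median 5.53) in the adrenal tumors, and it was detected in no tumor. Cox8a was 12.59 in ganglion tumor 7 and 12.87 in ganglion tumor 8, against 12.49 to 12.83 (median 12.64) in the adrenal tumors. Cox8b, again a heart, muscle and brown fat form, was 6.70 and 6.67 in ganglion tumors 7 and 8 and 6.55 to 7.60 (median 6.80) in the adrenal tumors, with the highest value in adrenal tumor 2 as its only detection. Among the testis forms, Cox7b2 was detected in no tumor (4.36 to 5.36), and Cox8c was detected in all 8 with values between 8.22 and 8.59. A second Cox8c probe set, at 6.90 to 7.38, was detected in 7 of 8 tumors and in 1 of 8 at the stricter limit. Cox6b2, also a testis form, was 5.72 and 6.84 in ganglion tumors 7 and 8 and 6.17 to 7.66 (median 6.92) in the adrenal tumors, with detection in 4 of 8 tumors. Its SD of 0.62 was the highest among the members. Cox6b1, its ubiquitous counterpart, ran from 13.72 to 14.12 over the 8 tumors.

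Ndufa4 was long counted with complex I and is now regarded as a complex IV subunit. It was 12.34 in ganglion tumor 7 and 12.99 in ganglion tumor 8, against 12.81 to 13.29 (median 13.05) in the adrenal tumors, so that tumor 7 had the lowest value of all. Its relative Ndufa4l2, a known target of hypoxia-inducible factor, stayed between 7.24 and 7.74 and was detected in all 8 tumors, or in 7 of 8 at the stricter limit. Cox7a2l, which joins complexes III and IV into supercomplexes, ran from 11.90 to 12.21. Its ganglion and adrenal values overlapped. Cox5a and Cox5b, subunits without a restricted form among the members, ran from 13.55 to 13.95 and from 13.83 to 14.28 over the 8 tumors. Cox7c, the member with the second highest SD (0.49), was 8.76 in ganglion tumor 7 and 7.69 in ganglion tumor 8, against 7.59 to 8.84 (median 7.87) in the adrenal tumors. Tumors 1 and 7 were its high samples, and its other probe set was detected in no tumor.

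**Figure D1:**
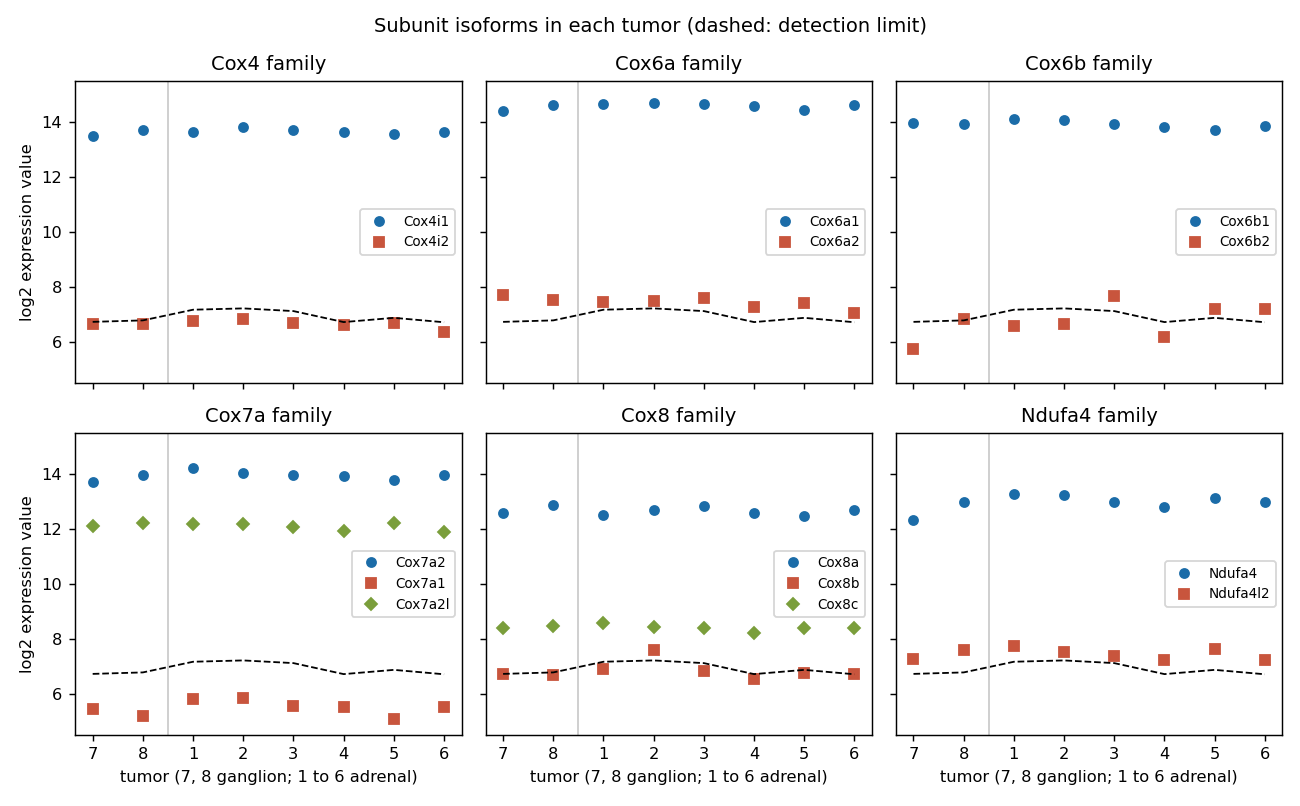
Log2 expression value (vertical axis) of the isoforms of 6 subunit families in each tumor (horizontal axis; ganglion tumors 7 and 8 left of the grey line, adrenal tumors 1 to 6 right of it). The dashed line is the detection limit of each array. Circles are the ubiquitous forms, at 12.34 or more in every tumor; Cox4i2 and Cox7a1 lie below the line throughout.

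Skeletal and heart muscle markers are given beside the restricted forms. The mean of 12 skeletal muscle genes was 7.31 in tumor 7 and 6.80 in tumor 8, against 5.69 to 6.07 in the adrenal tumors. Acta1, skeletal muscle actin, was 9.63 in tumor 7 and 9.20 in tumor 8, against 6.99 to 7.37 in the adrenal tumors. The contractile genes Acta1 and Tnnt3 passed the test as higher in ganglion tumors, 2 of 12, beside 0.0185% of all genes (limma, adjusted p = 0.00401 and 0.0138). Of that list 4 genes lay under the limit in every tumor, Tnnt3 among them, and none of the 12 exceeded it in every tumor. The mean of 10 heart and slow muscle genes was 6.26 in tumor 7 and 6.74 in tumor 8, against 6.53 to 6.97 in the adrenal tumors, and 0 of the 8 tested were called. Actc1, heart muscle actin, was 6.78 in tumor 7 and 9.68 in tumor 8, against 8.57 to 10.51 in the adrenal tumors. In the same 2 ganglion tumors Cox7a1 and Cox8b lay below the limit, and Cox6a2 at 7.69 and 7.53 was close to the highest adrenal value of 7.60. The muscle genes' part in the Cox6a2 values was not tested. Of 4 brown fat genes, Ucp1, which defines that tissue, was detected in no tumor (5.73 to 6.88), and neither was Ppara. Cidea was detected in 7 of 8 tumors (6.73 to 8.49) and Elovl3 in tumor 6 only. Ucp1 was highest in adrenal tumor 2 (6.88, against 5.73 to 6.07 in the others), where Cox8b also had its highest value. Cidea was highest in tumor 3, and Elovl3 and Ppara in tumor 6. The part of brown fat in the Cox8b value was not tested. Of 6 germ cell genes, 5 were detected in none, and Prm1 was detected in all 8 (7.60 to 7.82).

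The promoters of these isoforms are shown so that a ubiquitous form can be read beside its restricted counterpart. Windows from 250 bases before to 50 bases after the transcription start were taken from RefSeq (GRCm38.p6), which held one for 59 of the 73 members, with 61 windows in all. Searched on both strands were the E-box CACGTG, bound by MYC and MYCN, the core GCGCANGCG of nuclear respiratory factor NRF1, and the core CCGGAAG of ETS factors such as GABPA. The NRF1 core was present in 23% of the member windows (14 of 61), beside 8.58% of windows of protein-coding genes. The ETS core was present in 21.3% (13 of 61), beside 11.6%. The E-box was present in 4.92% (3 of 61), beside 7.84%. Member windows held a median of 19 CpG dinucleotides, beside 13 for protein-coding genes. None of the 4 restricted isoforms with a window (Cox6b2, Cox7a1, Cox7b2 and Cox8b) held any of the 3 motifs, and they had 2 to 10 CpG. The lack of a motif was not particular to them. Of the ubiquitous complex IV genes with a window, Cox5a, Cox5b, Cox7a2, Cox7c and Ndufa4 held none either, while Cox6a1, Cox6b1 and Cox8a held a match. A match is a description of letters and not evidence of binding. In the sequences below, capitals mark the ETS core on either strand; Cox7a2 had 20 CpG, Cox7a1 had 7, Cox8a had 19 and Cox8b had 2.
Cox7a2 (chr9:79759804-79760103, minus strand): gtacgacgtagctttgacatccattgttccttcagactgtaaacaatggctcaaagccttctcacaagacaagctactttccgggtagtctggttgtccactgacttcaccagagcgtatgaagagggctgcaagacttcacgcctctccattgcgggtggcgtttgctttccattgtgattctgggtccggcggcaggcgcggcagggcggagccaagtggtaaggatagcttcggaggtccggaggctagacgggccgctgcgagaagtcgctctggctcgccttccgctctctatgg
Cox7a1 (chr7:30183921-30184220, plus strand): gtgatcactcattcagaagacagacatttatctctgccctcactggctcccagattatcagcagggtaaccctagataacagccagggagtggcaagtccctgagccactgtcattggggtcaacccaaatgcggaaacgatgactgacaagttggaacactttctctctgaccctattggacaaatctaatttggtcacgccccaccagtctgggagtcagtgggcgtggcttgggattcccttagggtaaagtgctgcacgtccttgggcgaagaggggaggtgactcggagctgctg
Cox8a (chr19:7217567-7217866, minus strand): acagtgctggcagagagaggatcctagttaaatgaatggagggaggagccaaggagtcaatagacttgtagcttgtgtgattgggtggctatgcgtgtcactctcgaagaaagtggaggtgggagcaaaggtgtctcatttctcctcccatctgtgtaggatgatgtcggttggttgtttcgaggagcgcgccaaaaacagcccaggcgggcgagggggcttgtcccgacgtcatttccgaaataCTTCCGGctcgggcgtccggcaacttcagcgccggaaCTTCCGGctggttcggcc
Cox8b (chr7:140900397-140900696, minus strand): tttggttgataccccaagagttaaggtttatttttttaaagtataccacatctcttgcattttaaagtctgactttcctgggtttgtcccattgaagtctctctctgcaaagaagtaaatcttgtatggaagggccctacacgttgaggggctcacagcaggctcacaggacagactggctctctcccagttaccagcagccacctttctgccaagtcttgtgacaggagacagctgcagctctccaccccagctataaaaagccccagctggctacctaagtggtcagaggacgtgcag

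Between the sites, no respiratory chain gene passed the test. With limma over 16254 genes (Benjamini-Hochberg, adjusted p under 0.05), 0 of 73 members were called in ganglion against adrenal tumors, and 0 had an unadjusted p under 0.05. Over all genes 3 were called, all higher in ganglion tumors (0.0185%), and 761 had an unadjusted p under 0.05. In none of the 73 members did the ganglion and adrenal values separate without overlap, beside 718 of 16254 genes (4.42%). Differences lay within 0.3 of zero for 65 of 73 members, with a median size of 0.14, beside 0.16 over all genes tested. The 95% interval lay between -1 and 1 for 68 of 73, so that a change of that size was outside the interval for most but not for all. With 2 ganglion tumors, of which tumor 7 stood apart, smaller differences may be missed.

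**Figure D2:**
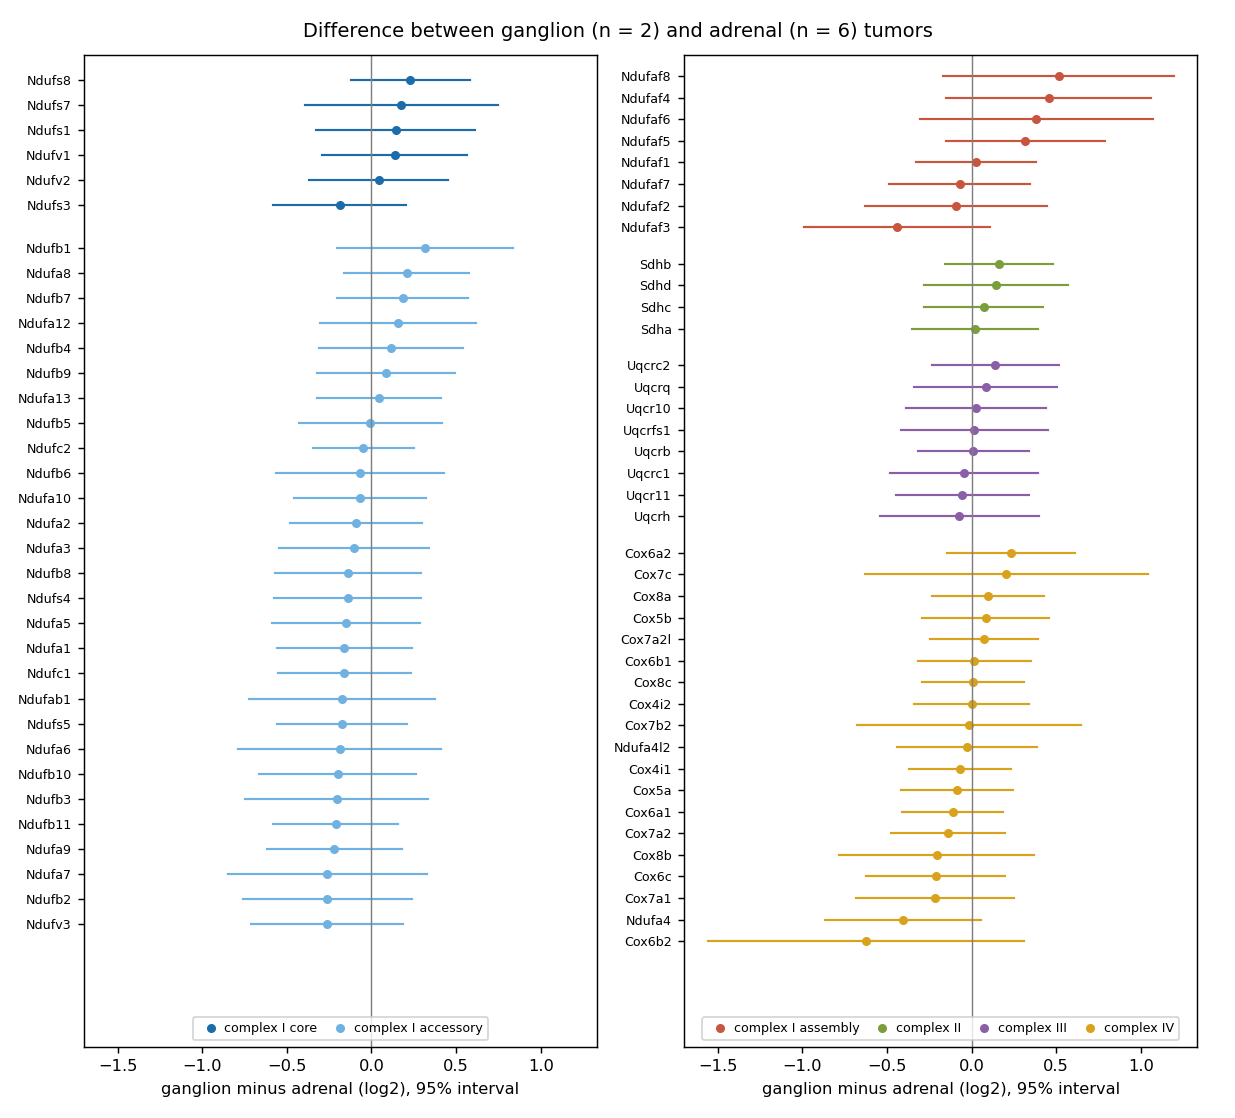
Difference in log2 expression value (horizontal axis, ganglion minus adrenal, points) with its 95% interval (lines) for each of the 73 genes, grouped by complex. Every interval includes zero, and Cox6b2 has the widest, from -1.56 to 0.31.

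Complex II showed no called difference between sites. Sdha, the flavoprotein that oxidises succinate, was 11.38 in ganglion tumor 7 and 11.70 in ganglion tumor 8, against 11.34 to 11.77 (median 11.51) in the adrenal tumors. Sdhb, its iron-sulfur partner, was 12.33 in ganglion tumor 7 and 12.44 in ganglion tumor 8, against 11.95 to 12.36 (median 12.26) in the adrenal tumors. Sdhc and Sdhd anchor the enzyme in the membrane; Sdhc was 11.30 in ganglion tumor 7 and 10.91 in ganglion tumor 8, against 10.94 to 11.27 (median 10.98) in the adrenal tumors. Sdhd was 11.88 in ganglion tumor 7 and 11.93 in ganglion tumor 8, against 11.31 to 12.02 (median 11.81) in the adrenal tumors. For Sdha and Sdhd both ganglion values lay within the adrenal range, for Sdhb tumor 8 lay slightly above it, and for Sdhc tumor 7 lay slightly above and tumor 8 slightly below. The differences, ganglion minus adrenal, were 0.02 (SE 0.16) for Sdha, 0.16 (SE 0.14) for Sdhb, 0.07 (SE 0.16) for Sdhc and 0.14 (SE 0.19) for Sdhd. Within the adrenal group, tumor 5 had the lowest value of Sdhb, and its Sdhd was also the lowest. A second probe set of Sdha was detected in all tumors and was lowest in tumor 8 (11.22), where the main one was near its highest. A second one of Sdhc, also detected in all tumors, read 9.425 in tumor 7 and 9.60 in tumor 8. Both lay inside the adrenal range of 9.32 to 9.69 on that set.

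In complex III all 4 genes examined singly kept the ganglion tumors inside the adrenal range on their brightest probe sets. A second probe set of Uqcrc2 did so as well. A second one of Uqcrb, detected in all tumors, read 10.90 in tumor 7, below the 11.34 to 11.87 of the adrenal tumors. Uqcrfs1, the Rieske iron-sulfur protein, was 11.76 in ganglion tumor 7 and 12.09 in ganglion tumor 8, against 11.49 to 12.16 (median 11.91) in the adrenal tumors. Uqcrc1, a core protein of the complex, was 12.30 in ganglion tumor 7 and 12.29 in ganglion tumor 8, against 11.91 to 12.64 (median 12.33) in the adrenal tumors. Uqcrc2 was 12.62 in ganglion tumor 7 and 12.35 in ganglion tumor 8, against 12.12 to 12.65 (median 12.32) in the adrenal tumors. Uqcrb, which helps to bind ubiquinone, was 14.17 in ganglion tumor 7 and 14.18 in ganglion tumor 8, against 13.96 to 14.42 (median 14.18) in the adrenal tumors. The other 4 genes, Uqcr10, Uqcr11, Uqcrh and Uqcrq, differed by -0.07 to 0.08 between sites. No gene of the complex passed the test.

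Core subunits of complex I were examined one by one, since most of them carry the flavin or an iron-sulfur cluster. Ndufv1, which binds NADH, was 12.54 in ganglion tumor 7 and 12.03 in ganglion tumor 8, against 11.93 to 12.44 (median 12.11) in the adrenal tumors. Ndufv2 was 12.88 in ganglion tumor 7 and 12.42 in ganglion tumor 8, against 12.38 to 12.92 (median 12.58) in the adrenal tumors. Ndufs1 was 10.78 in ganglion tumor 7 and 10.84 in ganglion tumor 8, against 10.21 to 10.94 (median 10.75) in the adrenal tumors. In tumor 7 Ndufv1 lay above all adrenal tumors on its brightest probe set, and Ndufv2 and Ndufs1 lay inside the adrenal range. Another Ndufv1 probe set was also highest in tumor 7, at 12.53 against 11.86 to 12.33 in the other tumors. The remaining Ndufv1 set, detected in all tumors, read 11.385 in tumor 7, inside the 11.259 to 11.575 of the other tumors. Ndufs7 and Ndufs8 hold the last clusters before ubiquinone; Ndufs7 was 12.73 in ganglion tumor 7 and 12.00 in ganglion tumor 8, against 11.97 to 12.73 (median 12.09) in the adrenal tumors. Ndufs8 was 12.81 in ganglion tumor 7 and 12.46 in ganglion tumor 8, against 12.21 to 12.55 (median 12.41) in the adrenal tumors. Ndufs3, which has no cluster, was 11.63 in ganglion tumor 7 and 11.95 in ganglion tumor 8, against 11.66 to 12.21 (median 12.00) in the adrenal tumors. Tumor 7 was thus above the adrenal range for Ndufs8 and just below it for Ndufs3, while tumor 8 lay inside it for both. Of 6 Ndufs8 probe sets 4 were lower in tumor 7 than the mean of the other tumors, and one of them had its lowest value there (9.97, against 9.99 to 10.66). The Ndufs7 level in tumor 7 was set by the probe set used: the other one gave 11.41 in tumor 7, against 11.12 to 11.68 in the other 7 tumors. Probe sets shared with close relatives read 10.80 in tumor 7 against 11.51 to 11.79 in the other tumors for Ndufa11 with Ndufa11b (a second such set read 7.38, inside the 7.29 to 7.98 of the others), and 11.91 against 12.04 to 12.52 for Ndufs6 with Ndufs6b.

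The 28 accessory subunits differed by -0.27 to 0.32 between sites, and Ndufa7 and Ndufa6 varied most over the tumors. Ndufa7 was 12.30 in ganglion tumor 7 and 13.15 in ganglion tumor 8, against 12.68 to 13.36 (median 12.92) in the adrenal tumors. Ndufa6 was 11.33 in ganglion tumor 7 and 11.97 in ganglion tumor 8, against 11.48 to 12.42 (median 11.72) in the adrenal tumors. In both, tumor 7 was the lowest of all tumors and tumor 1 the highest. Ndufb3 had the same low end at 10.96 in tumor 7, against 11.06 to 11.91 in the other tumors. Ndufb1 went the other way with 9.01 in ganglion tumor 7 and 8.35 in ganglion tumor 8, against 7.99 to 8.74 (median 8.34) in the adrenal tumors, and its difference of 0.32 (SE 0.23) turned to -0.015 without tumor 7. Ndufab1, the mitochondrial acyl carrier protein, was 12.40 in ganglion tumor 7 and 12.84 in ganglion tumor 8, against 12.21 to 13.14 (median 12.84) in the adrenal tumors. Ndufb4 was below the limit in every tumor (5.27 to 5.81) on its only single-gene probe set, although 2 probe sets shared with Ndufb4b and Ndufb4c ran from 11.64 to 12.65.

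Several complex I assembly factors had their extreme value in tumor 7. These proteins build the complex and do not stay in it. Ndufaf4, which acts early with Ndufaf3, was 11.06 in ganglion tumor 7 and 9.996 in ganglion tumor 8, against 9.79 to 10.40 (median 10.09) in the adrenal tumors. Its second probe set read 10.48 in tumor 7 and 9.82 in tumor 8, against 9.73 to 10.12 in the adrenal tumors. Tumor 7 was the highest on both probe sets, and tumor 8 lay inside the adrenal range. Ndufaf8, a partner of Ndufaf5, was 11.30 in ganglion tumor 7 and 10.36 in ganglion tumor 8, against 10.03 to 10.81 (median 10.15) in the adrenal tumors. Ndufaf5, which modifies Ndufs7, was 9.33 in ganglion tumor 7 and 8.99 in ganglion tumor 8, against 8.48 to 9.28 (median 8.83) in the adrenal tumors. Ndufaf6 was 10.06 in ganglion tumor 7 and 9.35 in ganglion tumor 8, against 8.77 to 9.96 (median 9.25) in the adrenal tumors. For these genes as well tumor 7 was the highest of the 8. Ndufaf3 stood opposite with 8.92 in ganglion tumor 7 and 9.75 in ganglion tumor 8, against 9.42 to 10.11 (median 9.76) in the adrenal tumors, so that tumor 7 was the lowest. Tumor 7 was thus highest in 4 and lowest in 1 of the 8 factors, beside 20.3% highest and 28.3% lowest among all detected genes. The remaining 3 factors, Ndufaf1, Ndufaf2 and Ndufaf7, lay inside the adrenal range in both ganglion tumors.

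**Figure D3:**
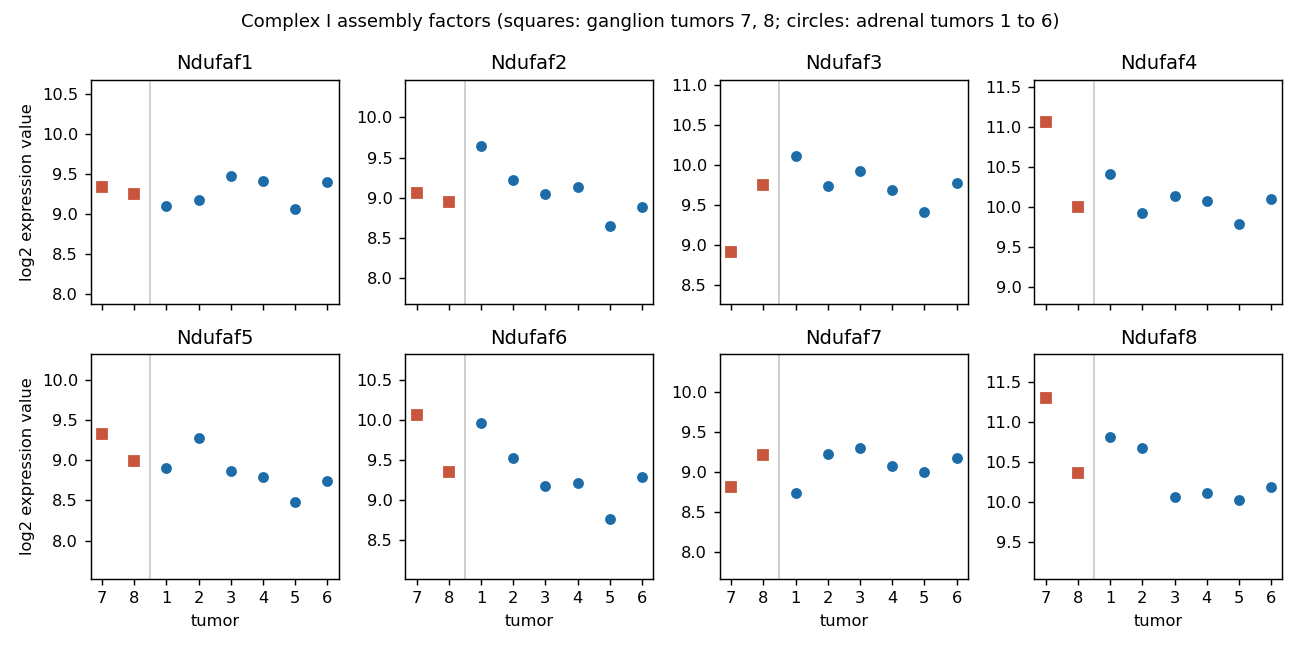
Log2 expression value (vertical axes, each spanning the same width around the gene's mean) of the 8 Ndufaf genes in each tumor. Squares are ganglion tumors 7 and 8 and circles are adrenal tumors 1 to 6; tumor 7 is the highest for Ndufaf4, Ndufaf5, Ndufaf6 and Ndufaf8 and the lowest for Ndufaf3.

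In the test of both ganglion tumors the differences were 0.51 (SE 0.30) for Ndufaf8, 0.45 (SE 0.27) for Ndufaf4 and -0.44 (SE 0.24) for Ndufaf3, and none passed (limma, adjusted p = 0.903 for each). With tumor 8 left out, so that tumor 7 alone stood against the adrenal tumors and the spread was that of the adrenal tumors, 951 of 16210 genes were called (5.87%). Of the members 1 of 73 was called, Ndufaf4, with a difference of 0.98 (limma, adjusted p = 0.0493). Without tumor 7 the difference of Ndufaf4 was -0.08, that of Ndufaf8 0.04 and that of Ndufaf3 -0.03, so that tumor 7 carried all 3. By a simple count, tumor 7 lay more than 0.5 beyond all other tumors in 1 of 67 detected members (1.5%), beside 13.0% of the 9966 genes detected in all tumors. Among genes with a mean of at least 10 these shares were 1.8% of 56 members and 13.0% of 4178 genes. All these shares took the brightest probe set of each gene and were not counted over the other sets. Some other sets detected in all tumors lay further out in tumor 7. One of Ndufb11 read 11.48 there, against 12.36 to 12.81 in the other tumors, and one of Ndufa7 read 11.74, against 12.43 to 13.08. The Ndufaf4 window, shown as the promoter of the one member called there, held 28 CpG and the NRF1 core (capitals, where matches on the 2 strands overlap) and no E-box.
Ndufaf4 (chr4:24897833-24898132, plus strand): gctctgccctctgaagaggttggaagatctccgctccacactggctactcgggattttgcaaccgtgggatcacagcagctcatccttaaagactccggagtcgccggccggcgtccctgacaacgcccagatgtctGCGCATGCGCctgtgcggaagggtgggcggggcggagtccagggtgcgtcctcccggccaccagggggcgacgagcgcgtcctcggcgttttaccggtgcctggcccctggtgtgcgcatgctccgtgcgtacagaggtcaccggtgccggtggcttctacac

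Averaged by complex, with each gene centred over the 8 tumors, the members moved little. Tumor 1 was high in complex I subunits (0.22), complex III (0.28) and ubiquitous complex IV subunits (0.20), with 29 of 34, 7 of 8 and 8 of 10 genes above their own mean. Tumor 5 was low in complex II (-0.27), complex III (-0.26) and the complex I assembly factors (-0.36), with 0 of 4, 0 of 8 and 0 of 8 genes above their own mean. All detected genes together stood at 0.04 in tumor 1 and -0.01 in tumor 5. In tumor 7 the core subunits of complex I stood at 0.20 and its assembly factors at 0.23, the accessory subunits at -0.15 and complex III at -0.03. The core value dropped to 0.05 when all probe sets of a gene were averaged. Tumor 8 kept every complex between -0.07 and 0.09.

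**Figure D4:**
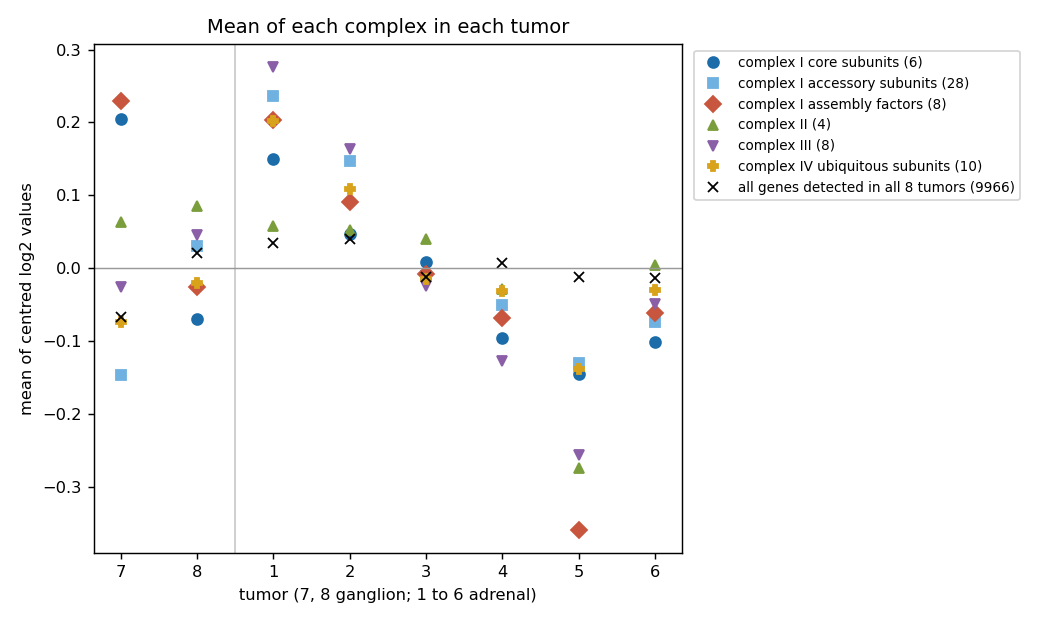
Mean of log2 expression values, each gene centred over the 8 tumors (vertical axis), for the groups of genes in the legend (number of genes in brackets), in ganglion tumors 7 and 8 and adrenal tumors 1 to 6 (horizontal axis). Tumor 1 is high in complexes I, III and IV, tumor 5 is low in all complexes, and in tumor 7 the core subunits of complex I lie at 0.20 (0.05 with all probe sets averaged) and the accessory subunits at -0.15.

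Counted gene by gene, tumor 1 had the highest value in 33 of the 67 detected members (49.3%), beside 23.6% of all detected genes. Tumor 5 had the lowest value in 26 (38.8%), beside 14.9%. Tumor 7 was highest in 11 and lowest in 19, in shares of 16.4% and 28.4%, beside 20.3% and 28.3%. Without tumors 1 and 7, tumor 5 was the lowest in 41 of 67, beside 24.8% of all detected genes. Without tumor 1, tumor 2 was the highest in 27 of 67 (all genes 22.3%). Tumor 1 was also the one with the Gapdh 3′ to 5′ gap of 5.51 and an actin gap of 2.77. In tumor 5 these gaps were 0.93 and 1.35, within the range of the other tumors. Their part in these counts was not tested.

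Probe sets of the same gene did not always move together. Of 36 members with at least 2 probe sets detected in all tumors, 15 had probe sets both above and below the mean of the other 7 tumors in tumor 7. This count takes the sign alone, so that deviations as small as 0.003 (Uqcrb) enter it, and it was not made for other tumors. For 26 members a probe set with the plain suffix (_at) could be set beside one with another suffix (_a_at, _s_at or _x_at, which mark probes shared between transcripts or sequences). In tumor 7 the plain set was the lower of the 2, each relative to the other 7 tumors, for 22 of 26 genes, with a median gap of -0.41. In tumor 1 it was the lower for 22 of 26 as well, with a median gap of -0.21, whereas in tumor 8 it was the lower for 3 of 26. In tumor 5 it was the lower for 17 of 26 (median gap -0.07), and in tumors 2, 3, 4 and 6 for 2 to 10 of 26. The actin 3′ to 5′ gap was 2.77 in tumor 1, 1.855 in tumor 7 and 1.35 in tumor 5, against 0.64 to 1.03 elsewhere. The part of RNA integrity in these probe set counts was not tested. The plain set of Uqcrb was 10.90 in tumor 7 and 11.76 in tumor 8, against 11.34 to 11.87 in the adrenal tumors, while its main set, given above, lay inside the adrenal range. The plain set of Ndufb11 was 11.48 in tumor 7 and 12.81 in tumor 8, against 12.36 to 12.79 in the adrenal tumors. In Uqcr10 the plain set was 8.53 in tumor 7 and 7.87 in tumor 8, against 7.29 to 8.76 in the adrenal tumors, so that tumor 7 was near tumor 1, its highest. Ndufab1 ran the other way from Uqcrb, with a plain set of 9.63 in tumor 7, above 8.17 to 9.36 in the adrenal tumors, and a main set among its lowest there. The high mean of the complex I core subunits in tumor 7 depended on the probe set that stands for a gene: it was 0.20 with the brightest set and 0.05 with the mean of all sets. The accessory subunits were low either way, at -0.15 and -0.18.

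**Figure D5:**
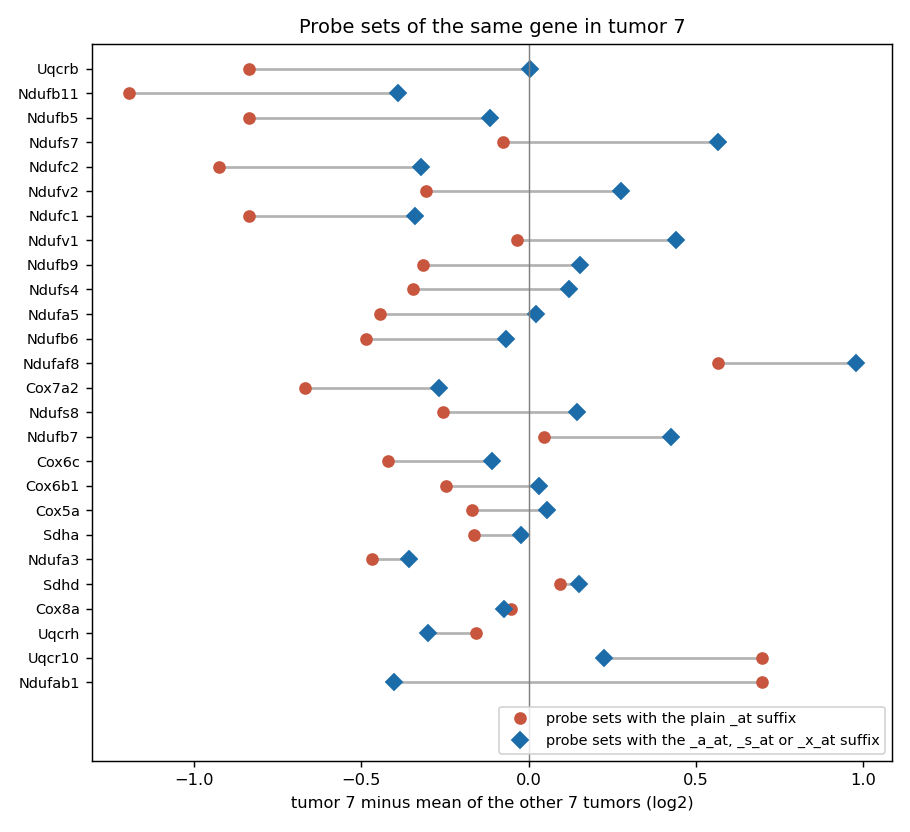
Log2 expression value of tumor 7 minus the mean of the other 7 tumors (horizontal axis) for 26 genes with both kinds of probe set. Circles are probe sets with the plain suffix and diamonds those with another suffix, averaged where a gene has several; the circle lies left of the diamond for 22 of 26 genes.

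Related mitochondrial genes held no called member either. Called in ganglion against adrenal tumors were 0 of 15 genes of complex V (the ATP synthase), 0 of 30 assembly factors of complexes II to IV, 0 of 10 further assembly factors of complex I, 0 of 13 genes of the mobile carriers and cytochrome c1, 0 of 13 regulators of mitochondrial biogenesis and 0 of 16 genes of the tricarboxylic acid cycle (0.0185% of all genes). Median differences of these lists ran from 0.01 to 0.16. Tumor 7 had high values of several regulators and acid cycle genes, given here without a test. Ppargc1b, a coactivator of mitochondrial biogenesis, was 10.41 in tumor 7 and 6.79 in tumor 8, against 6.69 to 7.65 in the adrenal tumors. Its relative Pprc1 was 10.32 in tumor 7 and 9.17 in tumor 8, against 8.41 to 9.51 in the adrenal tumors. Esrra, a nuclear receptor that works with these coactivators, was 9.16 in tumor 7 and 8.01 in tumor 8, against 8.07 to 8.49 in the adrenal tumors. Ppargc1a, near the detection limit, was 7.52 in tumor 7 and 6.24 in tumor 8, against 6.13 to 7.24 in the adrenal tumors. Gabpa was not raised: it was 10.37 in tumor 7 and 10.12 in tumor 8, inside the adrenal range of 9.44 to 10.53. Tumor 7 had the highest value in 8 of the 13 regulators, 9 of the 16 acid cycle genes and 3 of the 15 complex V genes, beside 20.3% of all detected genes; differences between these lists were not tested. Among acid cycle genes, Idh3a, a subunit of isocitrate dehydrogenase, was 12.22 in tumor 7 and 11.16 in tumor 8, against 10.61 to 11.29 in the adrenal tumors. In complex V, Atp5l was 12.19 in tumor 7 and 12.98 in tumor 8, against 12.65 to 13.12 in the adrenal tumors.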

How the data were processed

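The authors deposited log2 expression values from Affymetrix Mouse 430 version 2 arrays. RMA and Partek 6.6 appear in the submitters' processing notes, the Methods name gcRMA in Bioconductor, and which was applied is not settled, so that background correction and normalization are already in the values. The number of arrays limits the precision. Genes were named from the platform annotation, with symbols updated through Entrez identifiers: 34958 of 45101 probe sets had 1 gene, 932 had several and 9211 had no name here. A gene entered the test if 2 or more tumors exceeded log2 5, the limit of the Methods. Ganglion and adrenal tumors were compared with limma 3.58.1 (lmFit and eBayes) in R 4.3.3, checked on simulated data, in place of the rank-based method that the Methods name; other values came from Python 3.11.15, numpy 2.4.6 and pandas 2.3.3, and plots from matplotlib 3.10.9. Alternatives covered normalization, the filter, the probe set per gene, the variance model, the detection limit and tumors left out. Genes named are complex II, isoform families, core subunits of complex I, 4 complex III genes, called genes, the 15 highest SDs, genes detected nowhere, up to 5 genes whose probe sets disagree most between sites and, in other lists, genes of high SD; Ndufb11, the other assembly factors and values from shared probe sets were added after their values were seen. The members and lists were chosen with earlier results of these data known. Promoter sequences and gene names come from RefSeq tables of GRCm38.p6. Leaving tumors out of the detection, complex-mean and rank counts, averaging detected probe sets and taking core and accessory subunits apart were chosen after seeing the data.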

Additional observations from a re-analysis of the deposited data

Results flagged for a closer look

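For 40 named members and 9 groups of genes, the highest and lowest tumor of all 8 tumors and of the 6 adrenal tumors was set against the others by Dixon's ratio. Of 98 such tests 9 exceeded the 95% critical value, where chance gives about 1 in 20, and tests of a gene over 8 and over 6 tumors share their values. Adrenal tumor 5 had 5 of the 9, which are not independent: they are Sdhb, Sdhd and the mean of complex II, a mean of 4 genes that includes both.

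Sdhb was 11.95 in tumor 5, against 12.24 to 12.44 in the other 7 tumors, and stood apart among all 8 and among the adrenal tumors. Sdhd was 11.31 in tumor 5, against 11.71 to 12.02 in the others. A second Sdhd probe set was also lowest in tumor 5 (10.07), but nearer to the others (10.22 to 10.75), and Dixon's ratio was not taken for it. The mean of complex II in tumor 5 was -0.27, against -0.03 to 0.09 in the others, again in both sets of tumors. Ndufs7 was 12.73 in tumor 1, against 11.97 to 12.25 in the other adrenal tumors. Tumor 7 had a nearly equal value, and tumor 1 had the widest Gapdh 3′ to 5′ gap. On the other Ndufs7 probe set tumor 1 was also the highest (11.68) but close to tumor 3 (11.67), and Dixon's ratio was not taken for it. Cox8b was 7.60 in tumor 2, above 6.55 to 6.90 in the others, in both sets, and crossed the detection limit there only. Cox4i2 was 6.34 in tumor 6, below 6.62 to 6.82 in the others, and lay below the detection limit in all of them.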

How the results depend on the processing

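No paired analysis was possible because the sources used here do not say which tumors, if any, came from the same mouse. Over all genes, the count of calls was 3 and became 6 with the mean of all probe sets and 9 without tumors 6 and 7. Leaving out 1 tumor at a time gave 2 to 951 calls, with 8 without tumor 7 and 951 without tumor 8. For the members the count was 0 under each alternative of normalization, filter, probe set and variance model and 0 to 1 with 1 tumor left out, the 1 being Ndufaf4 without tumor 8 (limma adjusted p = 0.0493). With 1 tumor left out its difference ran from -0.077 (without tumor 7) to 0.984 (without tumor 8), and that of Ndufb1 from -0.015 (without tumor 7) to 0.647 (without tumor 8). Without tumors 6 and 7 they were -0.072 and -0.032. Of the 10 members with the lowest p, which were recomputed singly, the other 8 kept their sign and none was called, but without tumor 7 their differences shrank to between -0.079 (Ndufa4, -0.41 with all tumors) and 0.151 (Cox6a2, 0.23). Members detected in all tumors numbered 67, with 65 at the 99th percentile, 72 at log2 5, 67 with any probe set and 67 without each tumor in turn. The complex means moved by less than the spread between tumors under each alternative run, except that the core subunits of complex I in tumor 7 stood at 0.205 and at 0.053 with the mean of all probe sets, and equally at 0.053 with the mean of those detected in all tumors. With 2 ganglion tumors, signals near the limit (Cox6b2, Cox8b) or below it (Cox7b2) bear little weight.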
